A study of Mus musculus with 13 samples.

Results

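The comparison described here is high-fat diet (HFD) against regular chow in the arcuate nucleus of the mouse hypothalamus, taken over both genotypes of the study. It used all 13 libraries of the series, 7 from mice on HFD and 6 from mice on chow, chosen by the diet in the sample titles. The HFD groups were Klf4 knockouts (KO, n = 3) and controls (n = 4). The chow groups were KO (n = 3) and controls (n = 3). In KO, Klf4 is deleted from Agrp-expressing cells, per the title of the series. The labels give neither the Cre line nor what the control mice carried. All mice were 20 weeks old at collection, and the HFD groups had eaten that diet for the last 10 weeks. Each title names its own mouse, and each library is 1 mouse. By the letters in the titles there were 3 M and 4 F mice on HFD and 3 M and 3 F mice on chow.

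The arcuate nucleus lies at the base of the hypothalamus, beside the third ventricle and above the pituitary stalk. Its AgRP neurons drive feeding through the peptides AgRP and NPY and through GABA, and its POMC neurons restrain feeding through melanocortins made from the precursor POMC. Both read leptin, insulin and gut hormones. Fat-rich food is known to increase microglia and reactive astrocytes in the mediobasal hypothalamus of rodents. The tissue here was bulk, so fewer cells of a type and less RNA per cell cannot be told apart.

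Totals per library were 45.4 to 68.2 M counts on HFD (median 55.8) and 34.7 to 65.0 M counts on chow (median 38.5). Only KO_Chow replicate 1 lay within the HFD range, and the next chow library had 43.5 M, so depth largely followed diet. With counts thinned to the smallest total, 0 genes had an adjusted edgeR p under 0.05, and 1874 had an unadjusted p under 0.05. The arcuate genes Agrp, Npy, Pomc and Cartpt had counts in every library, which does not measure how much neighbouring tissue each piece held. There were 2 libraries that went against their titles. The library labelled Control_Chow replicate 3 carries the letter F, with 0.674 CPM (counts per M, by library total) of Xist and 180.1 CPM summed over the Y-linked genes, a male pattern. The library labelled Control_HFD replicate 3 had 63.6 CPM of Hsd11b2, a gene beside Agrp. KO libraries had 60.7 to 68.5 CPM of it and the other controls 0.348 to 1.55 CPM. Both libraries stayed in their labelled groups, and the fits within controls include both. By Xist and the Y-linked genes, every control library on chow had a male pattern. Control_HFD replicates 3 and 4, in contrast, had 56.9 and 38.2 CPM of Xist. Diet and sex therefore cannot be fully told apart in values within controls, nor in differences between genotypes. Values without both are given for the count of genes and for some of the gene lists, not for single genes. In the titles the mouse numbers of HFD and chow mice fall in different series. Diet and any batch that follows those numbers cannot be told apart.

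No gene passed the test of diet across the whole transcriptome. Of 23622 genes tested with edgeR's quasi-likelihood test and genotype as an additive term, 0 (0%) had a Benjamini-Hochberg adjusted p under 0.05, and the smallest adjusted p was 0.596. Below an unadjusted p of 0.05 there were 1156 genes higher on HFD (4.89%) and 821 lower (3.48%), 1977 in all (8.37%). DESeq2, with the same design, called 11 of 40749 genes (0.027%), 7 higher and 4 lower, and had 2513 at an unadjusted p under 0.05. The median log2 fold change of tested genes, HFD over chow, was -0.0031, and 49.1% were positive. Among the 7001 genes with a mean log2 CPM of at least 5, the median size of the log2 fold change was 0.057 and the 95th percentile 0.23. All genes named below had an edgeR adjusted p between 0.596 and 0.907, so each value is a description of these libraries. Without the 2 libraries that went against their titles, 0 genes passed and 1500 were under an unadjusted p of 0.05.

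Arcuate neuropeptides varied as widely among mice on the same diet as between diets. Agrp was at 5.88 to 69.6 CPM (median 16.9) on HFD and 7.52 to 50.7 CPM (median 16.1) on chow. Npy was at 25.5 to 176 CPM (median 75.9) on HFD and 22.2 to 185 CPM (median 61.4) on chow. The ranges of HFD and chow overlapped almost in full for both genes. The libraries rich in Agrp were the libraries rich in Npy: KO_HFD replicates 1 and 3, Control_HFD replicate 2 and KO_Chow replicates 2 and 3. Exact two-sided permutation tests of log2(CPM + 1), with diet exchanged within genotype, gave p = 0.733 for Agrp and p = 0.806 for Npy. The differences, HFD minus chow, were 0.25 and 0.15 on that scale. The annotated model of Agrp overlaps other genes on the opposite strand, and with no strand setting given their reads cannot be told apart.

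Pomc was higher on HFD in controls, with chow mice of both genotypes spread from 165 to 1769 CPM. In KO mice it was at 1274, 1168 and 1878 CPM on HFD, against 363, 1769 and 1449 CPM on chow. In control mice it was at 1272, 1682, 683 and 948 CPM on HFD, against 376, 165 and 361 CPM on chow. Every control on HFD lay above every control on chow, while the KO groups overlapped. The log2 fold change was 1.13 ± 0.45 (SE) over both genotypes, 0.28 ± 0.53 within KO and 1.91 ± 0.42 within controls, and the difference between genotypes had an unadjusted edgeR p of 0.0462 and an adjusted p of 0.883. The exact permutation test over both genotypes gave a difference of 1.23 and p = 0.0243, or 0.121 after Benjamini-Hochberg adjustment over the 5 genes tested this way. The p was 0.0514 without KO_HFD replicate 3 and 0.0571 without KO_Chow replicate 1. Per gene length, the median Pomc level was 964 RPKM (reads per kilobase and per M reads) on HFD and 280.3 RPKM on chow. Pituitary genes, described below, were higher on HFD too, with a list median of 1.65, or 0.64 among genes with at least 1 CPM in at least 6 libraries. They summed to 12.5 to 371 CPM on HFD and 17.8 to 61.5 CPM on chow. The part of pituitary tissue in the Pomc values was not tested.

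Cartpt, which encodes the anorexigenic peptide CART, was at 188 to 476 CPM (median 279) on HFD and 163 to 476 CPM (median 252) on chow, with an exact permutation p of 0.554. Klf4, the gene deleted in KO, encodes a zinc-finger transcription factor and was at 1.58 to 5.95 CPM (median 4.04) on HFD and 2.14 to 3.20 CPM (median 2.66) on chow. Its exact permutation p was 0.133, or 0.04 without Control_HFD replicate 1, the HFD library with the lowest level. Of the 12 POMC neuron genes 7 were higher and 5 lower, with a median of 0.094. Mc4r, the receptor through which melanocortins restrain feeding, was at 6.15 to 11.1 CPM (median 8.44) on HFD and 5.09 to 9.24 CPM (median 5.85) on chow. Rgs4, a regulator of G protein signalling, was at 168 to 269 CPM (median 178) on HFD and 190.3 to 316 CPM (median 221) on chow, with a log2 fold change of -0.35 ± 0.15. Of the 12 AgRP neuron genes 8 were higher, with a median of 0.16. The AgRP list had 3 members higher within KO and 10 within controls, and its median was -0.07 without Control_HFD replicate 2. Without 1 library at a time, medians ran from -0.07 to 0.26 for the AgRP list and from 0.02 to 0.12 for the POMC list.

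Other arcuate neurons gave mixed values. Among the 10 genes of dopamine and GHRH neurons, 5 were higher and 5 lower, with a median of -0.12, or 0.01 without Control_Chow replicate 2. Ddc, the enzyme that completes dopamine synthesis, was at 61.8 to 92.4 CPM (median 70.1) on HFD and 73.98 to 138 CPM (median 102) on chow, and its log2 fold change was -0.53 ± 0.14. Slc18a2, which loads monoamines into vesicles, was at 24.9 to 98.96 CPM (median 31.8) on HFD and 61.7 to 123 CPM (median 66.7) on chow. On HFD the highest level of each was in the library labelled Control_HFD replicate 3, also the HFD library richest in Hdc, the histamine synthesis enzyme. Hdc was at 171 CPM there, against 4.28 to 25.8 CPM in the other HFD libraries. Ddc and Slc18a2 also act in the histamine neurons of the posterior hypothalamus and in other monoamine cells. Ghrh, the growth hormone releasing hormone, differed by 0.57 ± 0.25, and Gal, the peptide galanin, by 0.47 ± 0.20. In the 8 genes of KNDy neurons, which pace reproductive hormone release, 6 were higher, and Pdyn, the dynorphin precursor, differed by 0.32 ± 0.14.

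Genes that receive and relay feeding signals showed no common direction. Of 21 leptin and insulin signalling genes, 12 were higher and 9 lower, the median was 0.032, and none was under an unadjusted p of 0.05. Socs1, a feedback inhibitor of cytokine receptors, had the smallest p of that list, with 3.46 to 11.3 CPM (median 5.37) on HFD and 3.13 to 6.55 CPM (median 4.46) on chow. Among the 21 feeding-signal receptors tested, 9 were higher and 12 lower, with a median of -0.056 and a range of -0.52 to 0.55. Under an unadjusted p of 0.05, 3 were higher and 1 lower, where 4.89% of all tested genes were higher and 3.48% lower. The receptor median was 0.07 without Control_Chow replicate 3, and the signalling median -0.02 without KO_Chow replicate 1. Cckar, a receptor of the satiety hormone cholecystokinin, was at 11.05 to 19.5 CPM (median 16.1) on HFD and 8.23 to 13.8 CPM (median 10.3) on chow, and its log2 fold change was 0.55 ± 0.14 with 0.33 ± 0.18 within KO and 0.74 ± 0.17 within controls. In Cckar only the 2 lowest HFD and the 2 highest chow libraries overlapped. Gipr, the receptor of the gut hormone GIP, had a log2 fold change of -0.52 ± 0.21, at levels under 2 CPM in every library. Adipor1, an adiponectin receptor, differed by 0.12 ± 0.05.

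Microglial genes were higher on HFD throughout the list. All 15 of the 15 tested had a positive log2 fold change, with a median of 0.45 and a range of 0.076 to 0.61. Of these, 12 were higher at an unadjusted p under 0.05, where 4.89% of all tested genes were, and none was lower. Summed over the list, microglial genes made up 614.7 to 926.2 CPM on HFD (median 714.8) and 451.2 to 731.0 CPM on chow (median 552.5). The ranges overlapped, since KO_Chow replicates 2 and 3 lay above the median of the HFD libraries.

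The complement subunits C1qa, C1qb and C1qc, made in brain mainly by microglia, sit together on chromosome 4. C1qc (ENSMUSG00000036896.5, chromosome 4, 136889804 to 136893065, minus strand) was at 51.7 to 90.1 CPM (median 65.8) on HFD and 37.6 to 60.6 CPM (median 44.6) on chow. Its mean was 68.9 ± 15.05 CPM on HFD (SD, n = 7) and 47.4 ± 10.3 CPM on chow (SD, n = 6), and its log2 fold change was 0.57 ± 0.13, with 0.40 ± 0.15 within KO and 0.73 ± 0.17 within controls. C1qa was at 38.4 to 68.5 CPM (median 47.9) on HFD and 25.6 to 48.6 CPM (median 31.7) on chow, with a log2 fold change of 0.61 ± 0.16. C1qb, chosen after its values were seen, was at 79.7 to 129.7 CPM (median 94.03) on HFD and 55.5 to 100.3 CPM (median 68.7) on chow. For all 3 subunits the lowest library was a control on chow, and KO on chow overlapped HFD. Per gene length, the HFD medians were 46.0 RPKM for C1qa, 86.3 for C1qb and 34.0 for C1qc.

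Aif1, the actin-binding protein IBA1 used to stain microglia, was at 5.75 to 11.7 CPM (median 7.80) on HFD and 4.07 to 8.08 CPM (median 5.46) on chow, a log2 fold change of 0.54 ± 0.14. Tmem119, a membrane protein of resident microglia, was at 29.2 to 44.5 CPM (median 34.8) on HFD and 19.5 to 36.7 CPM (median 25.7) on chow, a log2 fold change of 0.45 ± 0.12. All 3 KO libraries on chow lay within the HFD range of Aif1, and KO_Chow replicate 2 within that of Tmem119. The median of the microglial list was 0.25 within KO, where 14 of 15 were higher, and 0.53 within controls, where all 15 were. In both genotypes 14 of the 15 were higher, where 27.7% of all tested genes were. Without the 2 libraries that went against their titles the median was 0.42.

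**Figure D1:**
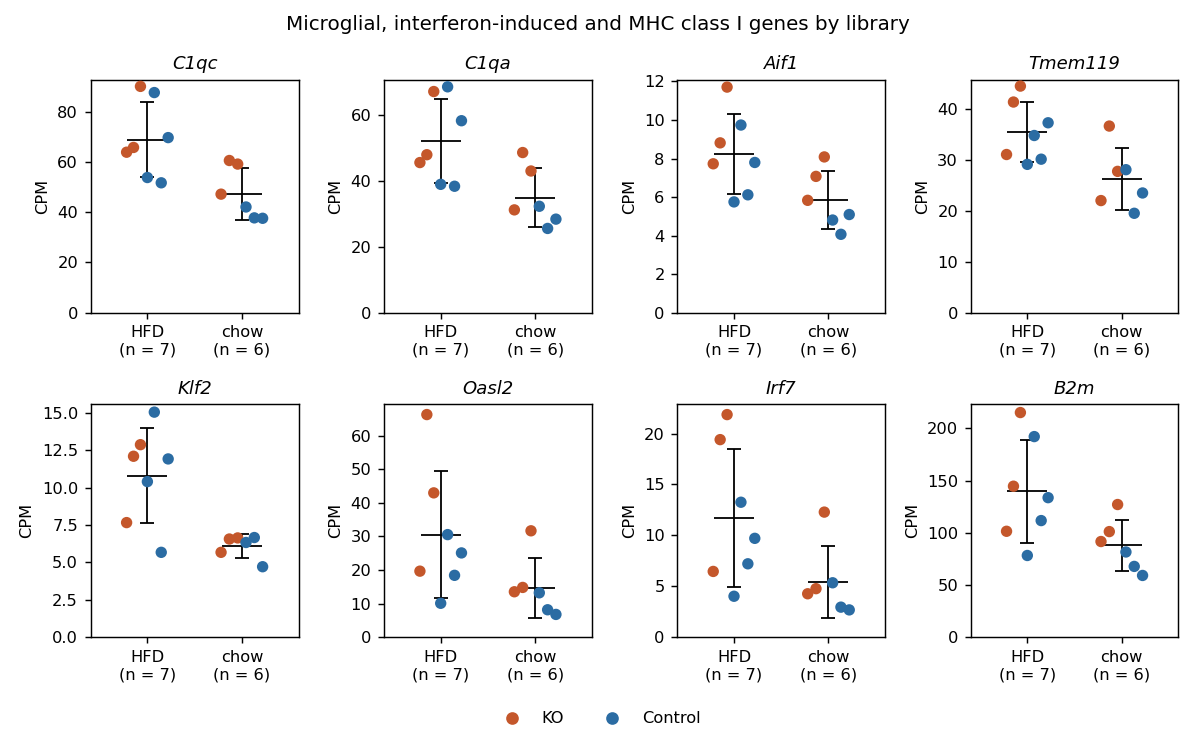
Counts per M counts (CPM, linear axis from 0) of 8 genes in each library, HFD (n = 7) left and chow (n = 6) right; points are mice, orange for KO and blue for controls, and black bars are the mean with SD. The HFD mean is the higher in every panel, and in each panel the ranges of HFD and chow overlap; C1qc is at 51.7 to 90.1 CPM on HFD and 37.6 to 60.6 CPM on chow.

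Genes induced by interferon showed larger differences and a wider spread. All 15 on the list were higher, with a median of 1.09 and a range of 0.17 to 1.57. Of these, 11 were higher at an unadjusted p under 0.05, where 4.89% of all tested genes were. Oasl2, an antiviral oligoadenylate synthetase-like protein, was at 10.1 to 66.2 CPM (median 25.1) on HFD and 6.82 to 31.7 CPM (median 13.4) on chow, a log2 fold change of 1.13 ± 0.34. Ifi44 was at 0.888 to 7.67 CPM (median 2.82) on HFD and 0.523 to 2.81 CPM (median 0.843) on chow, a log2 fold change of 1.57 ± 0.48. For Oasl2 and Ifi44, KO_HFD replicate 2 was the highest library and Control_HFD replicate 1 the lowest on HFD, and KO_Chow replicate 3 was the highest on chow. Irf7, the transcription factor that amplifies the interferon response, was at 4.03 to 21.9 CPM (median 9.72) on HFD and 2.70 to 12.3 CPM (median 4.53) on chow, a log2 fold change of 1.18 ± 0.37, and Ifi27 differed by 0.62 ± 0.20. The list summed to 144.6 to 558.3 CPM on HFD and 114.3 to 363.5 CPM on chow.

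Many interferon-induced genes carry a binding element for interferon regulatory factors in their promoters, which was searched for as GAAA, any 2 bases and GAAA again. Promoter windows from RefSeq (GRCm38.p6), 250 bases before to 50 after the start, were found for 11 of the 15 genes, and 7 of the 11 (63.6%) held the motif on either strand; overlapping matches were counted. Of all 27025 genes with a window, 1079 (3.99%) held it. The microglial list had it in 1 of 10 genes and the antigen presentation list in 1 of 9. A match is a description of letters, not a site. The stretches below run from base -140 to base -41 relative to the start, 5′ to 3′ on the gene's strand, with the motif or its reverse complement in capitals. They are shown because the interferon list had the largest median among the immune lists. The motif lies in this stretch in 6 genes, of which 4 are printed; Ifit3 and Bst2 are not.
Isg15 chr4:156200859-156200958 minus strand: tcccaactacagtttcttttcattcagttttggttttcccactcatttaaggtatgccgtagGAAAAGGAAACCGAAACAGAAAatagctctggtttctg
Ifit1 chr19:34640749-34640848 plus strand: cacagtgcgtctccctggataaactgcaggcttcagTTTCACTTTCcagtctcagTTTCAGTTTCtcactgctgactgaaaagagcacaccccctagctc
Rsad2 chr12:26456493-26456592 minus strand: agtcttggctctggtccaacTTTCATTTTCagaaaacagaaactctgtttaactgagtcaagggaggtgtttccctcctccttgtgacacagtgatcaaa
Gbp2 chr3:142620523-142620622 plus strand: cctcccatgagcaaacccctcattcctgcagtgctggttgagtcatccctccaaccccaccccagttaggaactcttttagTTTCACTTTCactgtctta

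In Isg15 the motif occurs as 3 overlapping copies on the gene's strand, starting at -78, -72 and -66. Ifit1 has 2 copies on the opposite strand, at -104 and -85, and Rsad2 and Gbp2 have 1 each. These 4 were picked among the 6, with their values already seen. Isg15, a ubiquitin-like modifier, was at 0.828 to 6.79 CPM (median 2.86) on HFD and 0.674 to 2.96 CPM (median 1.65) on chow, a log2 fold change of 1.09 ± 0.40. Ifit1, which binds viral RNA, was at 5.37 to 46.00 CPM (median 28.3) on HFD and 4.85 to 31.8 CPM (median 10.6) on chow, a log2 fold change of 1.19 ± 0.48. Rsad2, the antiviral protein viperin, was at 2.29 to 8.22 CPM (median 5.66) on HFD and 2.05 to 8.57 CPM (median 2.80) on chow, and Gbp2, a guanylate-binding protein, at 1.72 to 17.2 CPM (median 13.8) on HFD and 3.05 to 11.05 CPM (median 5.98) on chow. The ranges of HFD and chow overlapped in all 4. Oasl2, Ifi44 and Irf7, with log2 fold changes of 1.13, 1.57 and 1.18, had no match in their windows.

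Antigen presentation genes were also higher as a list. All 12 were higher, with a median of 0.71. Of these, 6 were higher at an unadjusted p under 0.05, where 4.89% of all tested genes were. B2m, the light chain of MHC class I, was at 78.3 to 215 CPM (median 134) on HFD and 59.2 to 127 CPM (median 86.7) on chow, a log2 fold change of 0.71 ± 0.21. Psmb8, an immunoproteasome subunit, differed by 0.79 ± 0.25. The class I heavy chains H2-D1 and H2-K1 differed by 0.67 ± 0.22 and 0.71 ± 0.28; they belong to a family of near-identical genes, so reads may be split among them. Summed, the list was at 384.5 to 1219 CPM on HFD and 317.1 to 633.5 CPM on chow. KO_HFD replicate 3 and Control_HFD replicate 2 were the highest libraries.

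Genes of the meninges had higher values on HFD as well, and their part in the immune values was not tested. The fit given below, with their sum as a term, cannot measure that part, since the sum itself differed between diets. Of the 11 meningeal fibroblast genes all were higher on HFD, with a median of 1.10, or 1.85 without Control_Chow replicate 1, and they summed to 124.6 to 585.1 CPM on HFD and 81.1 to 373.5 CPM on chow. Dcn, the matrix proteoglycan decorin, was at 8.19 to 141 CPM (median 49.7) on HFD and 9.59 to 39.8 CPM (median 16.9) on chow, Lum, the proteoglycan lumican, at 1.19 to 21.6 CPM (median 5.89) on HFD and 1.01 to 7.53 CPM (median 2.35) on chow, and the collagen genes Col1a1 and Col3a1 differed by 1.23 ± 0.59 and 1.47 ± 0.79. On HFD, Dcn was highest in KO_HFD replicate 3 and Control_HFD replicates 2 and 4, and lowest in Control_HFD replicate 1. With the log2 summed CPM of the meningeal list as a further term, added after seeing the data, the medians were 0.26 for the microglial list, 0.35 for the interferon list and 0.091 for antigen presentation. In that fit 14 of 15, 13 of 15 and 9 of 12 members were higher. Border-associated macrophage genes had 8 of 8 higher with a median of 0.49, against -0.20 with 3 of 8 higher in that fit. That median of 0.49 was 1.08 without Control_Chow replicate 1, 0.92 without KO_Chow replicate 2 and 0.32 without Control_HFD replicate 4. Of that list Ms4a7 and Cbr2, markers of macrophages at the brain's borders, were at 0.166 to 3.08 CPM (median 1.03) on HFD and 0.123 to 0.887 CPM (median 0.415) on chow and at 0.331 to 3.55 CPM (median 1.49) on HFD and 0.215 to 1.23 CPM (median 0.594) on chow.

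**Figure D2:**
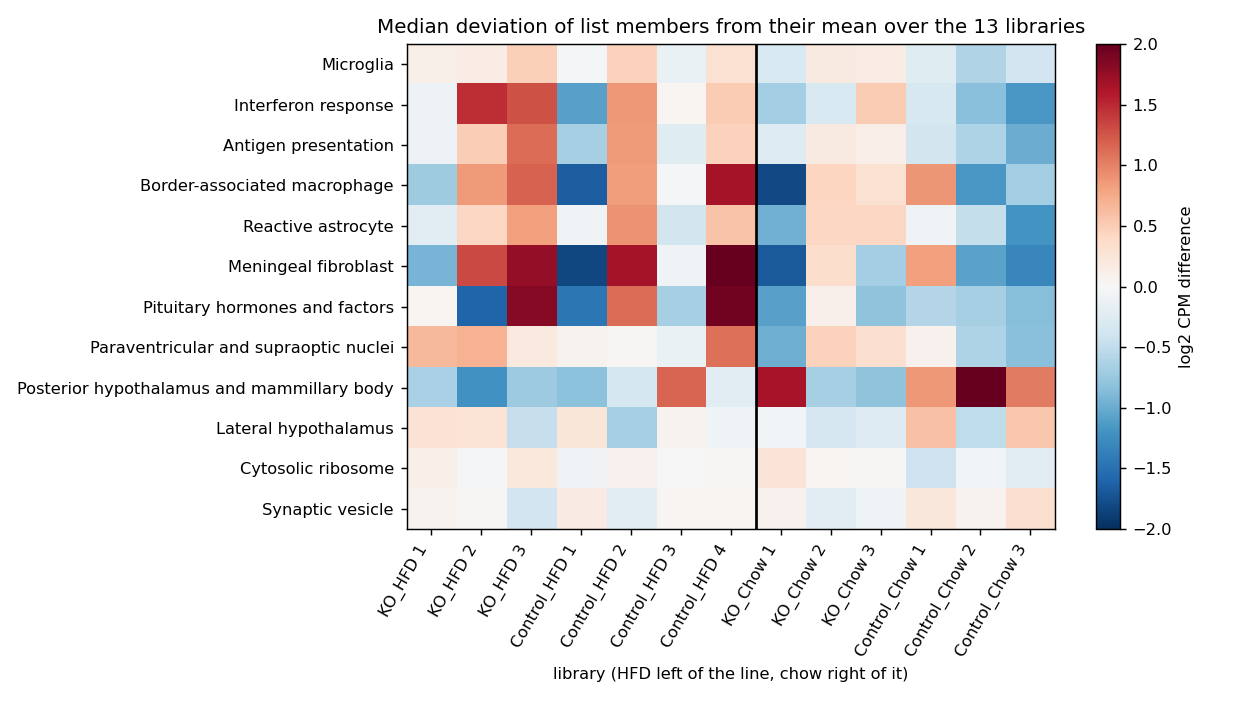
Each cell gives, for 1 gene list (rows) in 1 library (columns), the median deviation of its members' log2 CPM from their mean over the 13 libraries; the 7 HFD libraries are left of the line, the 6 chow libraries right of it, and colours stop at 2 either way. KO_HFD replicates 2 and 3 and Control_HFD replicates 2 and 4 are high in interferon and meningeal genes, while Control_HFD replicate 1 is low in both.

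Sex was unevenly divided when read from Xist, which was high in 4 of 7 HFD libraries and 2 of 6 chow libraries. On chow these were KO libraries, and no control library on chow was high in Xist. With log2 CPM of Xist as a term, 0 genes passed, 1288 were under an unadjusted p of 0.05, and the medians were 0.38 for microglia, 0.80 for interferon and 0.66 for antigen presentation. Among the M letters alone they were 0.56, 0.74 and 0.54, and among the F letters alone, which include 1 library with a male pattern on chow, 0.34, 1.39 and 0.84.

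Inflammatory signalling and reactive astrocyte genes gave smaller counts. Of 18 NF-kB and cytokine genes 4 were higher at an unadjusted p under 0.05, where 4.89% of all tested genes were. In all, 15 were higher, with a median of 0.36. That median was 0.06 with the meningeal list as a term and 0.13 with the pituitary list as a term. Among genes with at least 1 CPM in at least 6 libraries it was 0.15, with 11 higher. Nfkbia, the NF-kB inhibitor that NF-kB itself induces, was at 25.2 to 46.2 CPM (median 37.3) on HFD and 21.2 to 32.4 CPM (median 29.8) on chow. The adaptor Myd88 and the receptor Tlr4, which senses bacterial lipid, differed by 0.36 ± 0.15 and 0.66 ± 0.27. Ccl2, a chemokine that attracts monocytes, was under 1 CPM in every library, with 0.0968 to 0.718 CPM (median 0.389) on HFD and 0 to 0.214 CPM (median 0.104) on chow. Among 12 reactive astrocyte genes 11 were higher, with a median of 0.71, which was 0.27 with the meningeal and 0.23 with the posterior hypothalamic list as a term. C4b, a complement component, was at 83.5 to 209.9 CPM (median 152) on HFD and 31.7 to 149.8 CPM (median 70.9) on chow. Cd44, an adhesion receptor, differed by 0.74 ± 0.33. Gfap, the filament protein of reactive astrocytes, chosen after its values were seen, was at 403 to 899 CPM (median 716) on HFD and 86.1 to 896 CPM (median 386) on chow, a log2 fold change of 0.69 ± 0.46. In contrast, the 13 general astrocyte genes had a median of 0.060, with 9 higher.

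The 10 genes with the smallest p in the higher direction included microglial and vascular genes. Ttr, the thyroxine carrier that choroid plexus makes in great amounts, had the smallest p of all, with 0.967 to 2.74 CPM (median 1.77) on HFD and 0.485 to 1.04 CPM (median 0.643) on chow and a log2 fold change of 1.34 ± 0.26. On average it was at 1.76 ± 0.612 CPM on HFD (SD, n = 7) and 0.702 ± 0.222 CPM on chow (SD, n = 6), and the choroid plexus list had 5 of 8 tested genes higher. Klf2, a zinc-finger factor of the endothelium, was at 5.68 to 15.04 CPM (median 11.9) on HFD and 4.72 to 6.66 CPM (median 6.45) on chow, a log2 fold change of 0.82 ± 0.19. Control_HFD replicate 3 was the lowest HFD library for Klf2, and the only HFD library within the chow range. Nlrp3, the sensor of the inflammasome, was at 0.371 to 0.859 CPM (median 0.572) on HFD and 0.246 to 0.377 CPM (median 0.290) on chow, a log2 fold change of 1.01 ± 0.22, and its highest chow library lay above its lowest HFD library. Ptgs1, the cyclooxygenase COX-1, was at 14.7 to 20.8 CPM (median 17.5) on HFD and 11.4 to 14.9 CPM (median 14.02) on chow, a log2 fold change of 0.39 ± 0.09. Tmsb4x, which binds actin monomers, was at 529.9 to 689 CPM (median 632) on HFD and 416 to 632 CPM (median 516) on chow, a log2 fold change of 0.29 ± 0.07, with 0.14 ± 0.08 within KO and 0.42 ± 0.08 within controls. The others were Phf11d (1.38), Zfp429 (0.77), Endou (1.09) and Ripply3 (1.61), at mean HFD levels of 2.10, 2.06, 0.516 and 0.493 CPM, against 0.877, 1.21, 0.246 and 0.160 CPM on chow. DESeq2 called Ttr, C1qc, Klf2 and Phf11d, with adjusted p-values of 0.0183, 0.0493, 0.0493 and 0.0491.

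In the lower direction Cul3 stood first. Cul3 (ENSMUSG00000004364.14, chromosome 1, 80264923 to 80340480, minus strand) encodes the cullin scaffold of a family of ubiquitin ligases. It was at 26.2, 25.5 and 24.5 CPM in KO on HFD and 26.9, 26.1, 23.0 and 18.8 CPM in controls on HFD, against 27.3, 37.4 and 41.7 CPM in KO on chow and 42.0, 33.4 and 32.0 CPM in controls on chow. Every HFD library lay below every chow library, and KO_Chow replicate 1 was the nearest to the HFD range. The mean was 24.4 ± 2.78 CPM on HFD (SD, n = 7) and 35.6 ± 5.81 CPM on chow (SD, n = 6). The log2 fold change was -0.55 ± 0.11, with -0.47 ± 0.15 within KO and -0.61 ± 0.14 within controls, and the adjusted p was 0.596 by edgeR and 0.04 by DESeq2.

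The other genes with the smallest p in the lower direction had varied roles. Tanc2, a scaffold protein of the postsynapse, was at 114 to 139.6 CPM (median 127) on HFD and 118 to 179.9 CPM (median 164) on chow, a log2 fold change of -0.30 ± 0.07. Dscam, a homophilic adhesion molecule, was at 39.2 to 57.8 CPM (median 47.9) on HFD and 50.4 to 81.1 CPM (median 67.7) on chow, a log2 fold change of -0.45 ± 0.11. Cachd1, a protein that modulates calcium channels, was at 32.3 to 42.4 CPM (median 37.5) on HFD and 40.7 to 66.1 CPM (median 48.4) on chow. Its log2 fold change was -0.16 ± 0.11 within KO and -0.66 ± 0.11 within controls, a difference between genotypes with an unadjusted edgeR p of 0.00786. Fam193a, without overlap between diets, was at 11.6 to 14.7 CPM (median 13.2) on HFD and 14.9 to 16.9 CPM (median 15.8) on chow. Frem3, an extracellular matrix protein, was at 0.962 to 3.52 CPM (median 2.24) on HFD and 2.19 to 7.79 CPM (median 6.26) on chow, a log2 fold change of -1.33 ± 0.33. The long noncoding RNA Irx3os, which lies antisense to Irx3, differed by -1.46 ± 0.33; reads of Irx3 and Irx3os cannot be told apart, since no strand setting is given. Aldh3b3, an aldehyde dehydrogenase, was under 1 CPM in every library. Nup62cl (-1.46) and Zfp964 (-0.33) completed the 10. DESeq2 also called Irx3os and Frem3.

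**Figure D3:**
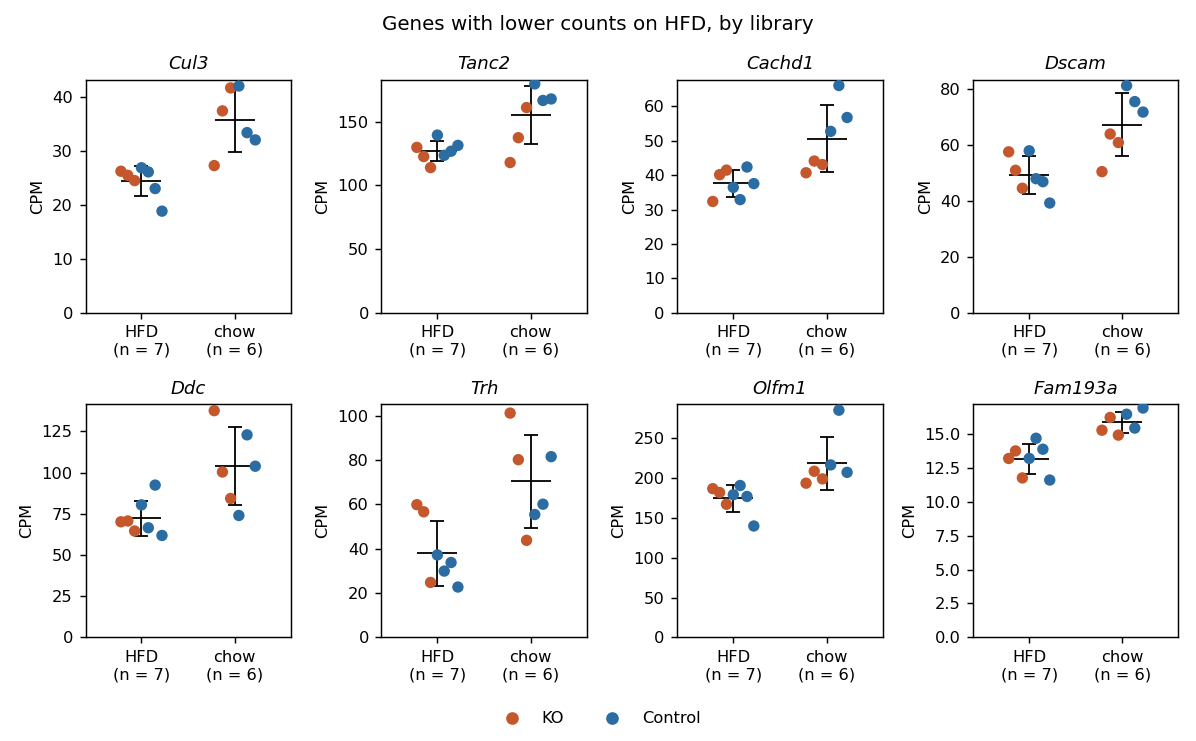
Counts per M counts (CPM, linear axis from 0) of 8 genes with lower mean counts on HFD, per library, HFD (n = 7) left and chow (n = 6) right; points are mice, orange for KO and blue for controls, and bars are the mean with SD. Cul3, Fam193a and Olfm1 show no overlap between diets, with Cul3 at 18.8 to 26.9 CPM on HFD and 27.3 to 42.0 CPM on chow; the other 5 genes overlap.

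Complete separation of the diets was rare. In 8 genes (0.0339%) every HFD library lay above every chow library, and in 10 genes (0.0423%) below. How many genes would separate with the diet labels exchanged was not tested, so separation only describes these libraries. The 8 included Dsn1 (0.29), a kinetochore protein, Mettl1 (0.18), a transfer RNA methyltransferase, and Cln6 (0.23), a protein of the endoplasmic reticulum. The 10 included Cul3, Fam193a, Dnal1 (-0.24), Olfm1 and Ncam1. Except for Cul3 and Fam193a, these were picked after their values had been seen. Olfm1, a secreted glycoprotein of neurons, was at 139.9 to 191 CPM (median 179) on HFD and 194 to 285 CPM (median 208) on chow, a log2 fold change of -0.33 ± 0.09. Ncam1, the neural cell adhesion molecule, was at 555 to 600.2 CPM (median 598) on HFD and 602 to 658 CPM (median 616) on chow, a log2 fold change of -0.08 ± 0.04.

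Ion channel, synaptic vesicle and neurofilament lists had small negative medians over both genotypes. Of 20 voltage-gated ion channel genes 17 were lower, with a median of -0.12. Within controls 19 of 20 were lower, with a median of -0.30, while within KO 18 of 20 were higher, with a median of 0.11. Every control library on chow had a male pattern, so sex and diet are mixed in the values within controls. The difference between genotypes had an unadjusted p under 0.05 in 8 of the 20, where 5.5% of all tested genes had one, and no gene passed after adjustment (smallest adjusted p 0.883). Cacna1a, the pore subunit of P/Q-type calcium channels, was at 10.02 to 21.7 CPM (median 19.5) on HFD and 15.4 to 30.4 CPM (median 27.6) on chow. Its log2 fold change was -0.56 ± 0.19, with -0.22 ± 0.22 within KO and -0.85 ± 0.23 within controls. KO_Chow replicate 1 was the lowest chow library for Cacna1a. Without both libraries that went against their titles the median of the channel list was -0.06, and without Control_Chow replicate 3 alone -0.08.

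Synaptic vesicle genes had 15 of 17 lower, with a median of -0.11, which was -0.03 within KO and -0.18 within controls. It was also -0.03 without KO_HFD replicate 3, and -0.06 without Control_Chow replicate 3, -0.07 without Control_Chow replicate 1 or Control_HFD replicate 2 and -0.17 without KO_HFD replicate 2. Pclo and Rims1, scaffolds of the presynaptic active zone, differed by -0.19 ± 0.06 and -0.25 ± 0.09. Neurofilament and axon cytoskeleton genes had 13 of 14 lower, with a median of -0.084, which was -0.04 without KO_HFD replicate 3, -0.05 without Control_HFD replicate 2 and -0.13 without KO_HFD replicate 1. Nefh, the heavy neurofilament subunit, was at 55.7 to 71.5 CPM (median 61.2) on HFD and 62.2 to 92.96 CPM (median 76.9) on chow, with -0.09 ± 0.12 within KO and -0.48 ± 0.08 within controls. By gene length, tested genes in the longest quintile had a median of -0.025, against 0.0066 in the shortest. With each library's trend on gene length taken out, 946 of 1980 genes under an unadjusted p of 0.05 were higher, where 1156 of 1977 were otherwise, and the median of all genes was -0.035.

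Cholesterol synthesis genes were lower by small amounts. Of the 22 genes 21 were lower, with a median of -0.14 (-0.09 without KO_HFD replicate 3), and 3 were lower at an unadjusted p under 0.05, where 3.48% of all tested genes were. In both genotypes 16 of the 22 were lower, where 26.3% of all tested genes were. Hmgcs1, which makes the HMG-CoA used for sterols, was at 249 to 299 CPM (median 274) on HFD and 246 to 353 CPM (median 334) on chow, a log2 fold change of -0.21 ± 0.08. Cyp51, the lanosterol demethylase, was at 102 to 126 CPM (median 113) on HFD and 113 to 139 CPM (median 130.3) on chow, and Sqle, the squalene epoxidase, at 135 to 168 CPM (median 156) on HFD and 141 to 191 CPM (median 176) on chow. Their log2 fold changes were -0.17 ± 0.06 and -0.18 ± 0.08. The median was -0.07 within KO and -0.17 within controls, and -0.11 without the 2 libraries that went against their titles. Fatty acid synthesis had 6 of 13 higher and a median of -0.008, with Acly, the enzyme that supplies cytosolic acetyl-CoA, at -0.10 ± 0.04. Fatty acid oxidation and uptake had 14 of 20 higher and a median of 0.051.

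**Figure D4:**
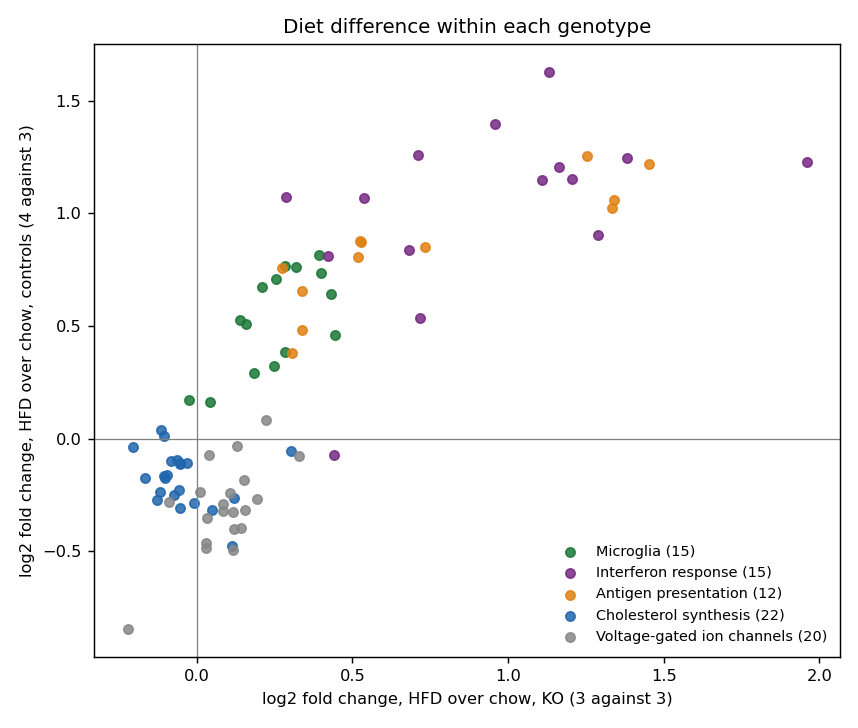
Log2 fold change, HFD over chow, within KO (3 against 3 mice, horizontal) and within controls (4 against 3 mice, vertical) for the tested members of 5 gene lists; each point is 1 gene. Microglial, interferon and antigen presentation genes lie mostly in the upper right, cholesterol synthesis genes near the origin on the lower left, and 18 of 20 channel genes right of 0 with 19 of 20 below 0.

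Across all tested genes, log2 fold changes within KO and within controls, which share no library, correlated at r = 0.307, and at 0.456 over the 16008 genes with a mean log2 CPM of at least 1. These are correlations across genes, which are not independent replicates. Within KO 880 of 22733 genes (3.87%) were under an unadjusted p of 0.05, and within controls 2158 of 22492 (9.59%). No gene passed after adjustment in either, nor in the test of genotype by diet, where 1299 genes (5.5%) were under an unadjusted p of 0.05.

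Stress and housekeeping lists had medians of at most 0.20 in size in the main fit, while some single members differed more. The 18 genes of the endoplasmic reticulum stress response had a median of 0.003, with 10 higher and none under an unadjusted p of 0.05. Of 16 cytosolic heat shock genes 12 were lower, with a median of -0.078. The inducible Hspa1a, an HSP70 chaperone, differed by -0.36 ± 0.15, and the small heat shock protein Hspb1 by 0.64 ± 0.27. All 30 cytosolic ribosomal protein genes were higher over both genotypes, with a median of 0.10, but 11 of 30 were higher within KO and 30 of 30 within controls. The median was 0.06 without Control_Chow replicate 1. Rplp1, of the large subunit, was at 91.8 to 123 CPM (median 99.8) on HFD and 73.7 to 109 CPM (median 88.2) on chow, and many ribosomal protein genes have near-identical pseudogenes that can share reads. Mt1 and Mt2, which bind zinc, differed by 0.40 ± 0.11 and 0.54 ± 0.15, while the list they belong to had 4 of 7 higher. Gpx1, a glutathione peroxidase, differed by 0.25 ± 0.07. Tmsb10, another actin monomer binder, differed by 0.27 ± 0.10. Of 18 immediate early genes 17 were higher, with a median of 0.20 (0.35 without KO_Chow replicate 1), and Npas4, induced by neuronal activity, was at 0.799 to 9.86 CPM (median 2.68) on HFD and 0.938 to 2.57 CPM (median 1.59) on chow.

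Blood vessel and oligodendrocyte genes were higher by moderate amounts. Of 10 mural cell genes 9 were higher, with a median of 0.41, which was 0.01 with the meningeal and 0.06 with the posterior hypothalamic list as a term. Leaving out 1 library gave a mural median of 0.26 (without Control_Chow replicate 2 or 3) and 0.27 (without Control_HFD replicate 4). Des, the filament desmin, was at 1.22 to 2.02 CPM (median 1.61) on HFD and 0.554 to 1.58 CPM (median 0.967) on chow, and Rgs5, a pericyte regulator of G protein signalling, differed by 0.24 ± 0.09. The 14 myelin genes were all higher, with a median of 0.27 and none under an unadjusted p of 0.05. Their median was 1.10 among M letters and -0.18 among F letters, and -0.38 with the posterior hypothalamic list as a term. It was 0.11 without KO_Chow replicate 1, 0.17 without Control_HFD replicate 1 and 0.41 without KO_Chow replicate 3. Tanycytes, which line the floor of the third ventricle, had 12 of 13 genes higher and a median of 0.40. That median was 0.04 with the pituitary list as a term, and 0.24, 0.26 and 0.61 without Control_HFD replicate 2, KO_HFD replicate 3 and KO_HFD replicate 2.

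In the main fit the highest median of the 55 gene lists was that of the pituitary genes. Of the 14 pituitary genes 11 were tested and 9 were higher, with a median of 1.65. That rank depended on members with low counts. Among genes with at least 1 CPM in at least 6 libraries, the pituitary median was 0.64, with 4 higher. Under that filter it was 1.12 for the meningeal and 1.04 for the interferon list. Fshb, the subunit specific to follicle-stimulating hormone, was at 21.6, 0 and 12.2 CPM in KO on HFD and 0.0301, 12.2, 0.110 and 11.6 CPM in controls on HFD. On chow it was at 0 to 0.228 CPM, so it passed the expression filter mainly through HFD libraries. Cga, the hormone subunit shared by FSH, LH and TSH, chosen after its values were seen, was at 0.331 to 287 CPM (median 64.6) on HFD and 0.391 to 32.7 CPM (median 2.02) on chow. Tshb and Lhb, the specific subunits of TSH and LH, were at 0.527 to 4.82 CPM (median 1.53) on HFD and 0.368 to 1.68 CPM (median 0.495) on chow and 0.0151 to 7.67 CPM (median 2.13) on HFD and 0.0288 to 0.961 CPM (median 0.284) on chow. The 4 libraries high in Fshb, KO_HFD replicates 1 and 3 and Control_HFD replicates 2 and 4, were also the highest for Lhb. Prl, prolactin, was high in KO_HFD replicates 2 and 3 and Control_HFD replicate 3, at up to 1.56 CPM. Of these, KO_HFD replicate 3 was also high in Fshb, and the others were not. The transcription factor Pou1f1 and the receptor Ghrhr, which mark pituitary cells, were too low to be tested. DESeq2 called Fshb with an adjusted p of 0.0471.

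Neighbouring hypothalamic nuclei gave unlike values. The ventromedial list had 7 of 9 genes higher and a median of 0.098. It ran from -0.06 without KO_HFD replicate 1 to 0.28 without Control_Chow replicate 3. The suprachiasmatic and anterior list had 4 of 7 higher and a median of 0.037. It ran from -0.31 without Control_HFD replicate 3 to 0.16 without KO_HFD replicate 3. The paraventricular and supraoptic list had 6 of 7 higher and a median of 0.70. Of the 8 genes of the posterior hypothalamus and mammillary body all were lower on HFD, with a median of -1.74, and they summed to 20.7 to 210.9 CPM on HFD and 28.1 to 351.5 CPM on chow. Hdc was at 4.28 to 171 CPM (median 12.3) on HFD and 11.96 to 232 CPM (median 105) on chow. Foxb1 and Lmx1b, transcription factors of that region, were at 2.09 to 5.68 CPM (median 3.25) on HFD and 2.40 to 38.2 CPM (median 4.33) on chow and 0.0323 to 1.61 CPM (median 0.102) on HFD and 0.0507 to 3.98 CPM (median 1.63) on chow, and Irx5 differed by -0.80 ± 0.33. On chow KO_Chow replicate 1 and the 3 control libraries were high in Hdc, and on HFD the library labelled Control_HFD replicate 3. The median was -3.16 among M letters and -0.12 among F letters. The median was -0.91 without Control_Chow replicate 2 and -1.05 without KO_Chow replicate 1. The 6 genes of the lateral hypothalamus were split, with 3 higher, 3 lower and a median of 0.02. The 2 of them under an unadjusted p of 0.05 were both lower, where 3.48% of all tested genes were lower at that p. Pmch, which encodes melanin-concentrating hormone, was at 3.61 to 108 CPM (median 10.4) on HFD and 3.07 to 357 CPM (median 114) on chow. Npvf was at 0.0358 to 1.65 CPM (median 0.143) on HFD and 0.0760 to 6.55 CPM (median 1.57) on chow.

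Oxt and Avp, the neurohypophyseal peptides oxytocin and vasopressin, were at 186 to 1156 CPM (median 646) on HFD and 2.76 to 543 CPM (median 131) on chow and 731 to 6642 CPM (median 3003) on HFD and 22.7 to 3813 CPM (median 656) on chow, with Avp chosen after its values were seen. Both were lowest in KO_Chow replicate 1 and in Control_Chow replicates 2 and 3. Otp, a transcription factor of paraventricular and arcuate neurons, differed by 0.70 ± 0.24. Trh, the thyrotropin-releasing hormone, ran the other way: it was at 22.7 to 59.8 CPM (median 33.7) on HFD and 43.7 to 101 CPM (median 70.1) on chow, a log2 fold change of -0.90 ± 0.25, with -0.66 ± 0.43 within KO and -1.10 ± 0.19 within controls. With the log2 summed CPM of the pituitary or the posterior hypothalamic list as a term, both added after seeing the data, 1261 and 1091 genes were under an unadjusted p of 0.05. In these fits the microglial median was 0.35 and 0.26, and the interferon median 1.00 and 0.89.

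**Figure D5:**
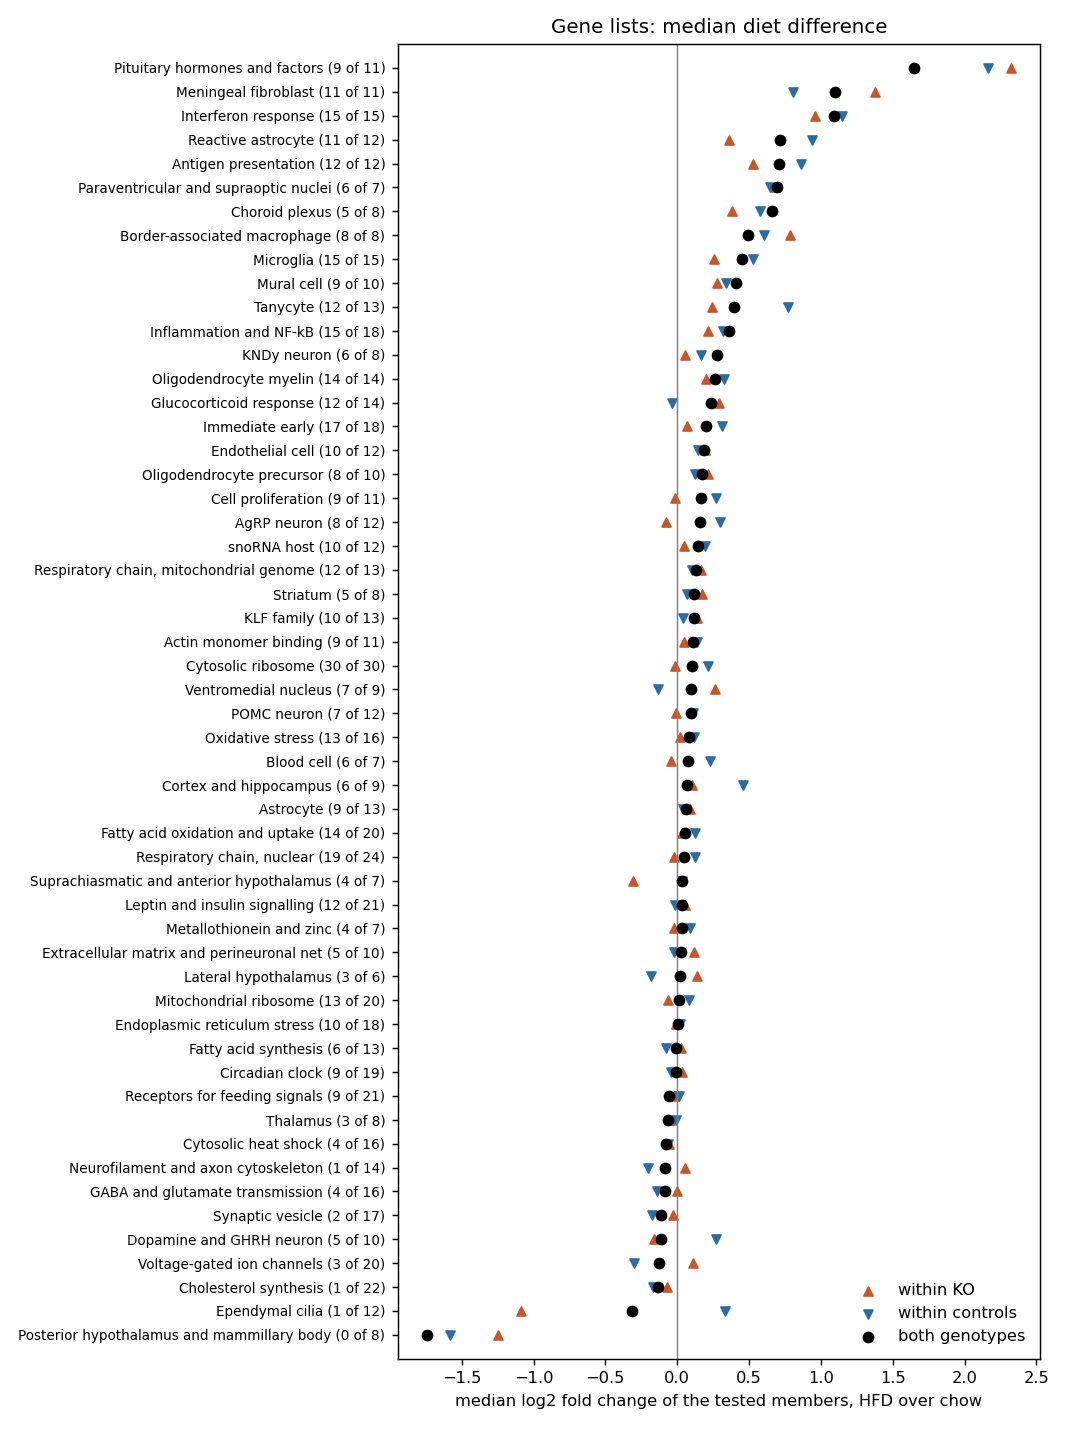
Median log2 fold change, HFD over chow, of the tested members of 54 gene lists, over both genotypes (black circles), within KO (orange triangles up) and within controls (blue triangles down); in brackets, members higher of members tested. Pituitary (1.65), meningeal (1.10) and interferon (1.09) lists lie at the top and the posterior hypothalamic list (-1.74) at the bottom, while most lists lie near 0.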

How the data were processed

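RNA from the arcuate nucleus of 13 mice was sequenced after Trizol extraction and SMART-Seq Ultra Low Input library preparation, per the labels' protocols. The authors deposited 1 table of raw read counts and RPKM per gene for 55421 identifiers, per the file headers. The submitters' processing notes list FastQC, STAR, STAR-Fusion, Subread, edgeR and build mm10, with neither role nor version. For the annotation release and the strand setting: not given in the sources used here. RPKM as deposited equals the count per M column counts and per kilobase of the deposited gene length (another column) plus 1 base, so tests used the counts, and RPKM only described levels. Symbols, coordinates and overlaps come from GENCODE M21 (GRCm38), where 54587 identifiers matched by version.

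Groups were taken from the sample titles. Replicate numbers follow accession order and pair nothing. The main test was edgeR 4.0.16 (R 4.3.3) quasi-likelihood with TMM, the default expression filter (23622 genes) and genotype plus diet, with Benjamini-Hochberg adjustment at 0.05. Residual degrees of freedom were 10. DESeq2 1.42.0 and limma 3.58.1 (voom) were alternatives. DESeq2 kept its own filtering, and an adjusted p it left as NA was not counted. SE is the log2 fold change divided by the root of the F statistic. CPM in the text is per M counts of the library total, and 1 count was worth 0.0147 to 0.0288 CPM. Pseudocount of the permutation tests was 1, with 700 arrangements and a smallest possible p of 0.00143. Libraries of 1 group correlated at r of 0.974 to 0.986 on log2 CPM, and every pair of libraries differed by at least 14.96 times sampling noise (chi-square per degree of freedom). The fit was tested on simulated data.

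The comparison, the 55 gene lists and their markers were chosen with earlier results of these data known, and no list was tested as a set. Named were Klf4, Agrp, Npy, Pomc and Cartpt, since none passed, the 10 genes of smallest p in each direction, and up to 4 members per list with the smallest p. Predicted genes, clones and pseudogenes were counted only. Alternatives changed scaling, filter, tool, covariates, depth, gene length, or left out libraries.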

Additional observations from a re-analysis of the deposited data

Results flagged for a closer look

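In each named gene the highest and lowest library of a diet were compared with the rest of that diet. Of the 208 sets examined, 17 held a library far from the others. The nominal rate of that check is 5% for independent sets. These sets share the same libraries, so the count cannot be set against that rate. In the library labelled Control_HFD replicate 3, the highest of the HFD group, Lmx1b was at 1.61 CPM, Irx5 at 7.81, Pmch at 108, Npvf at 1.65, Rgs4 at 269 and Aldh3b3 at 0.286 CPM. This library also went against its title, and the part of this in those values was not tested. In Control_HFD replicate 4, the lowest of the HFD group, Olfm1 was at 140 and Ncam1 at 555 CPM. Rplp1 was at 123 CPM in KO_HFD replicate 3, the highest on HFD.

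On chow, KO_Chow replicate 1 was the lowest library for Cacna1a (15.4 CPM) and Adipor1 (93.4 CPM). KO_Chow replicate 3 was the highest for Rgs5 (30.9 CPM), Rsad2 (8.57 CPM) and Prl (0.152 CPM), and KO_Chow replicate 2 for Tshb (1.68 CPM). Control_Chow replicate 2 was the highest for Pclo (219 CPM) and Olfm1 (285 CPM).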

How the results depend on the processing

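Under 33 alternatives edgeR and limma voom called 0 genes, and DESeq2 called 11. The count at an unadjusted p under 0.05, 1977 in the main fit, was 2513 by DESeq2 and 1850 by voom. It was 1288 with Xist as a term, 880 in KO only, and 933, 1261 and 1091 with the meningeal, pituitary and posterior hypothalamic lists as terms. Leaving out 1 library gave 1264 (without Control_HFD replicate 4) to 2586 (without KO_HFD replicate 1), and 1299 without Control_Chow replicate 3. The cause was not tested. The smallest adjusted p was 0.0672 without KO_Chow replicate 1. Without both libraries that went against their titles, medians were 0.985 for the interferon list, 0.683 for antigen presentation and 1.04 for the meningeal list. They were 1.81 for the pituitary list and -1.99 for the posterior hypothalamic list.

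Of 104 named genes, 97 kept their direction under every alternative that gave them a value, 3412 gene and setting pairs in all. Most were named for a small p in these same libraries, so a kept direction is no independent support. The share of all tested genes that kept their direction was not determined. In KO only, the log2 fold change was -0.016 for Agrp, -0.35 for Npy and -0.21 for Cartpt. Among F letters it was -0.059 for Agrp, -0.55 for Npy and 0.092 for Foxb1. With the meningeal term it was -0.085 for Col3a1 and -0.12 for Gbp2. With the pituitary term it was -0.019 for Agrp, -0.033 for Npy and -0.094 for Cga. With the posterior hypothalamic term it was -0.024 for Agrp and -0.30 for Npy. Npy was at -0.075 without Control_HFD replicate 2.

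In the permutation tests, leaving out 1 library gave differences of -0.12 to 0.72 for Agrp, -0.15 to 0.54 for Npy, 0.88 to 1.45 for Pomc, 0.03 to 0.28 for Cartpt and 0.29 to 0.55 for Klf4. No paired analysis was possible because replicate numbers only follow accession order. Levels near the worth of 1 count, 0.0147 to 0.0288 CPM, are limited by depth.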
